A study of Mus musculus with 20 samples.

Results

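Hippocampus and cortex of the same 5 wildtype (WT) C57Bl/6J mice were compared at postnatal day 7 (P7). The comparison used the 10 WT libraries among the 20 libraries of the series, all those whose sample labels read WT, with 1 hippocampus and 1 cortex library per mouse. The other 10 libraries came from the hippocampus and cortex of 5 Ube3aOE pups of the same strain and age, which carry extra copies of *Ube3a* on a bacterial artificial chromosome, and served here only as a second set of animals in which to look at the same region difference. The WT animals carried no transgene. Both tissues were dissected whole, so each library mixes neurons, glia, vessels and any neighbouring tissue taken along. In such bulk samples, fewer cells of a type and less RNA per cell cannot be told apart.

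The hippocampus is the medial part of the cortical sheet. It is built of the CA pyramidal fields and the dentate gyrus, and its patterning in the embryo depends on Wnt signals from the cortical hem. The neocortex is built of layers, in which upper-layer neurons connect mostly within the cortex and deep-layer neurons project away from it. In mice the first postnatal week is a time of synapse formation in both, while the dentate gyrus is still producing granule neurons from a progenitor zone of its own.

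Each library held 14191093 to 16752326 reads counted on genes. Levels are given as CPM, reads per 1e6 counted reads, on library sizes scaled by the trimmed mean of M values (TMM), always in the order of mice 1 to 5, and compare a gene between libraries, not 1 gene with another. A log2 fold change is hippocampus over cortex within a mouse, ± its SE, from edgeR's quasi-likelihood fit with the mouse as a block. A gene was called at a Benjamini-Hochberg adjusted *P* value under 0.05. Differences were sought in 15088 genes that passed a filter on low counts. The tissue labels were checked on 5 marker genes. *Prox1* (chr1:190118035-190170714, GRCm38), the transcription factor that specifies dentate granule cells, measured 144, 67.7, 135, 144 and 160.2 CPM in hippocampus and 10.7, 10.3, 12.3, 12.4 and 13.1 in cortex. All hippocampus libraries lay above all cortex libraries, at 10.8 times the level in the fit (log2 fold change 3.43 ± 0.14, adjusted *P* = 6.23e-06).

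*Zbtb20* (chr16:42875881-43642602), a zinc finger repressor needed for the CA1 field, had 107, 116, 125, 112 and 135 CPM in hippocampus and 15.7, 14, 31.1, 23.6 and 27.7 in cortex (log2 fold change 2.45 ± 0.16, adjusted *P* = 8.14e-05). *Grik4* (chr9:42518135-42944493), which encodes the kainate receptor subunit GluK4 of CA3 cells, had 68.6, 51.7, 81.1, 73 and 78.3 CPM in hippocampus and 20.4, 14.8, 21.1, 17.2 and 20.4 in cortex (log2 fold change 1.91 ± 0.060, adjusted *P* = 7.66e-08). Both genes were higher in the hippocampus of every mouse, with no overlap between the regions. The neocortical markers went the other way. *Rorb* (chr19:18930605-19111196), a nuclear receptor of layer 4, had 9.09, 8.82, 10.0, 9.8 and 7.38 CPM in hippocampus and 68.7, 38.5, 51.8, 63.9 and 64.1 in cortex (log2 fold change -2.65 ± 0.14, adjusted *P* = 8.68e-06). *Mef2c* (chr13:83504034-83667080), a transcription factor of maturing cortical neurons, had 115, 630.5, 138, 99.7 and 127 CPM in hippocampus and 1904, 1438, 1752, 1794 and 1736 in cortex (log2 fold change -3.42 ± 0.58, adjusted *P* = 0.00989). Here too the regions did not overlap, although the hippocampus library of mouse 2 stood far above the other 4. All 5 markers were called in the direction of their label.

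**Figure D1:**
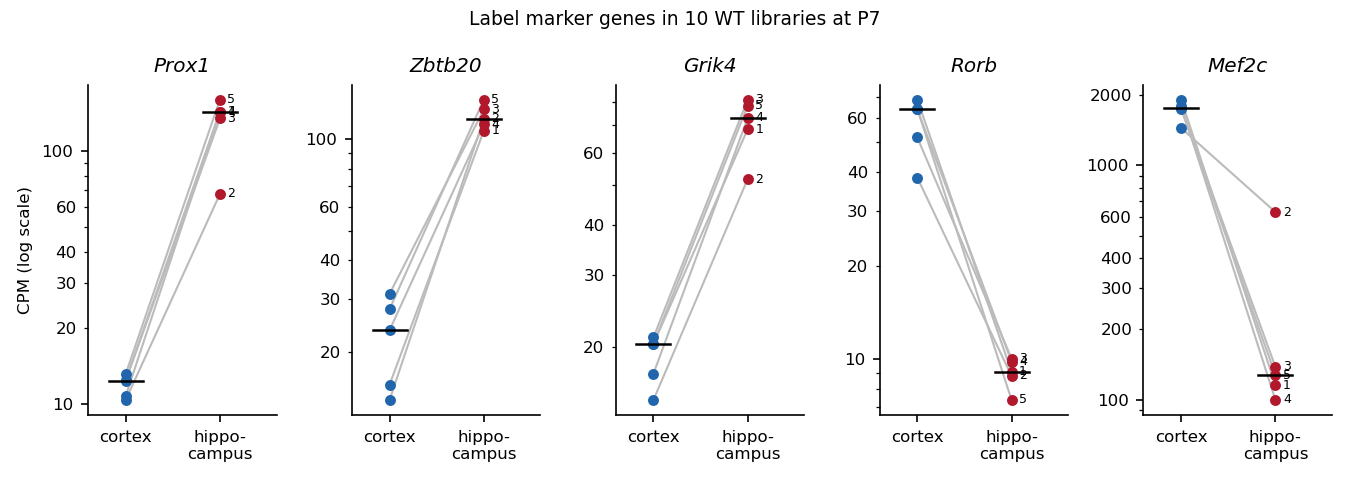
CPM on a log scale of 5 marker genes in the cortex (blue) and hippocampus (red) of each WT mouse. Grey lines join the libraries of 1 mouse, digits give the mouse, and black bars are medians of 5 libraries. The hippocampus of mouse 2 sits at 630.5 CPM for Mef2c, against 99.7 to 138 CPM in the other mice.

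Some libraries stood apart from the others of their region. In the hippocampus of mouse 2, 13 genes of neocortical upper layers summed to 1738 CPM, against 874 to 974 CPM in the other 4 hippocampi and 3079 to 3806 CPM in cortex. Of that sum *Mef2c* held 630.5 CPM, against 99.7 to 138 CPM in the other hippocampi. *Rorb*, of the same list, lay within their range (8.82 CPM, others 7.38 to 10.0). The same library had the lowest *Prox1* level among hippocampi, and the lowest sum of the dentate granule list (400.4 CPM, against 599 to 714 CPM). In the hippocampus of mouse 4, *Tcf7l2*, a transcription factor of thalamic neurons, had 226 CPM, against 2.84 to 4.46 CPM in the other 4. That library also held *Gbx2*, another thalamic gene, at 5.53 CPM, with 0.352 CPM or less elsewhere. In the cortex of mouse 2, 3.95% of the counts on genes lay on a single gene that collects ribosomal RNA reads, against 0.235% to 0.940% in the other cortices. In the cortex of mouse 3, *Eomes*, a gene of intermediate progenitors, had 5.52 CPM, against 0.0634 to 0.443 CPM in the others. The part of these libraries in any one result was not tested beyond leaving them out. Values without them are given beside many, though not all, of the results where they ended a call, or moved a fold change or a count of list members by over 1.5 times.

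Without mice 2 and 4, a choice made after the values were seen, all 5 marker genes were still called and *Mef2c* had a log2 fold change -3.83 ± 0.070, adjusted *P* = 1.89e-14. In both tissues of mice 3 and 5, counts of *Xist* and of 4 Y-linked genes went with the sex opposite to the label, whereas both libraries of every mouse went together. The pairing of tissues within a mouse therefore did not depend on the sex labels, which entered no fit. *Ube3a* itself had 54.4 to 76.8 CPM in the 10 WT libraries and 129.6 to 194.7 CPM in the 10 Ube3aOE libraries.

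**Figure D2:**
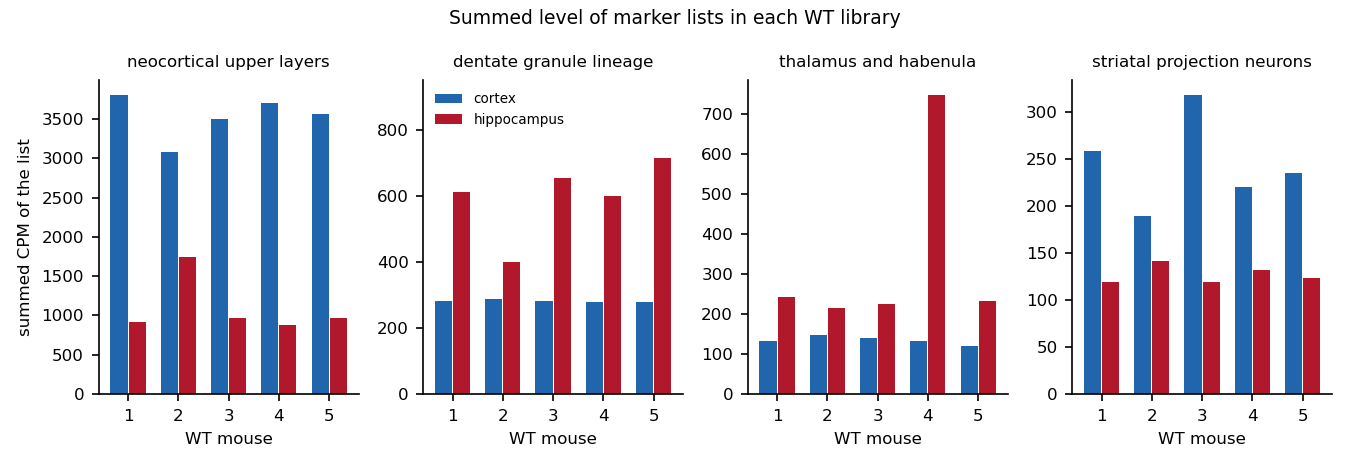
Summed CPM of 4 marker lists (linear axis from 0) in the cortex (blue) and hippocampus (red) library of each WT mouse. The hippocampus of mouse 2 is the highest of its region for neocortical upper layers (1738 CPM) and the lowest for the dentate granule lineage, and the hippocampus of mouse 4 is the highest for thalamus and habenula (747 CPM).

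Between the regions, 6496 of 15088 genes were called (43.1%), 3457 higher in hippocampus (22.9%) and 3039 lower (20.1%). Most differences were small. Of the called genes, 24.3% differed by less than 0.25 on the log2 scale and another 31.7% by 0.25 to 0.5, with a median SE of 0.081 over all genes tested. Differences over 2-fold were found for 1088 genes (7.21%), 686 higher (4.55%) and 402 lower (2.66%) in hippocampus. Above 8-fold the numbers were 65 and 22. The regions did not overlap in any of their 5 libraries for 3791 genes (25.1%). The 686 genes over 2-fold higher took up 1.77% to 2.49% of the counts of a hippocampus library and 0.706% to 0.792% of those of a cortex library. The 402 genes over 2-fold lower took up 1.79% to 2.12% of the counts in cortex and 0.646% to 1.05% in hippocampus, with the highest hippocampus value in mouse 2. Without mouse 2 the count over 2-fold was 1324, and without mouse 4 it was 1041.

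**Figure D3:**
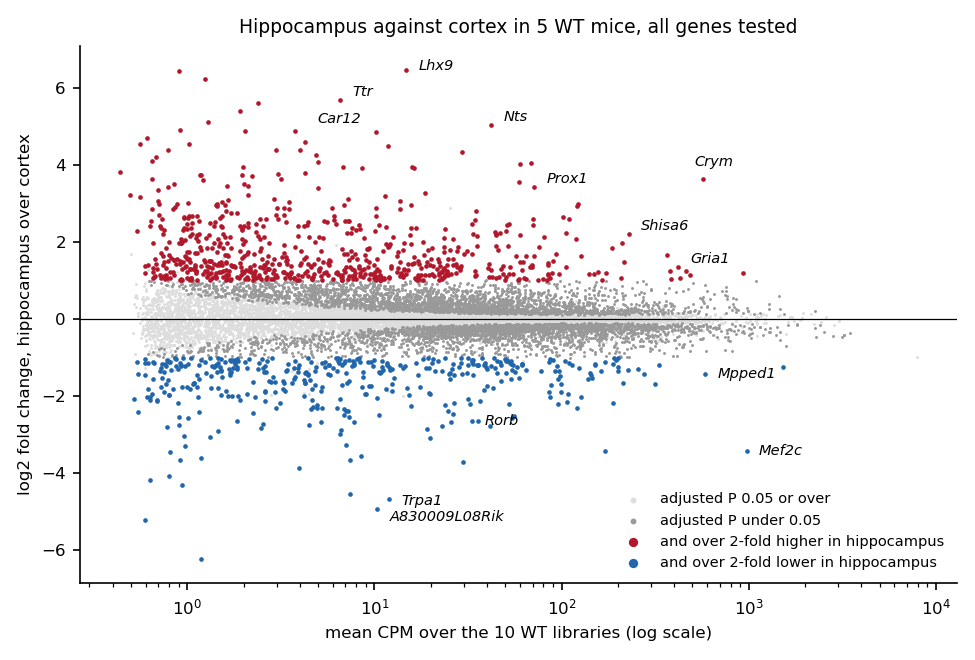
Log2 fold change of hippocampus over cortex (linear axis) against mean CPM over the 10 WT libraries (log scale) for all 15088 genes tested. Red and blue points are the 686 and 402 genes past both the adjusted P value of 0.05 and 2-fold. Large differences occur at high mean levels too, as for Crym (3.64) and Mef2c (-3.42).

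Among genes with a mean of at least 5 CPM that moved in 1 direction in all 5 mice, *Lhx9* (chr1:138825186-138848577) had the largest difference. It encodes a LIM homeodomain transcription factor and had 24.6, 15.4, 25.9, 54.7 and 24.7 CPM in hippocampus and 0.0634, 0.148, 0.578, 0.445 and 0.369 in cortex (log2 fold change 6.46 ± 0.20, adjusted *P* = 1.02e-07). Cortex was close to 0 throughout, and the hippocampus of mouse 4 was the highest library. Without mouse 4 the difference was nearly as large (log2 fold change 6.25 ± 0.24, adjusted *P* = 1.89e-06). *Ttr*, the thyroid hormone carrier made by choroid plexus, was next at 7.27, 27.9, 24.2, 1.84 and 3.14 CPM in hippocampus and 0.127, 0.664, 0.321, 0 and 0.123 in cortex (log2 fold change 5.67 ± 0.22, adjusted *P* = 2.54e-07). All cortex values were under 1 CPM, and the hippocampus values varied more between mice than those of *Lhx9*. *Nts*, the neuropeptide neurotensin, followed with 83.1, 112, 88.2, 52.9 and 69.1 CPM in hippocampus and 2.09, 3.69, 4.94, 0.762 and 1.41 in cortex (log2 fold change 5.02 ± 0.23, adjusted *P* = 2.34e-05).

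The other 7 genes at the top were *Car12* (a carbonic anhydrase, 4.86 ± 0.14), *St18* (a zinc finger factor, 4.48 ± 0.18), *Cabp7* (a calcium-binding protein, 4.33 ± 0.37), *Wnt2* (a Wnt ligand, 4.06 ± 0.17), *Igfbpl1* (4.05 ± 0.40), *Fibcd1* (a marker of CA1, 4.03 ± 0.22) and *Nhlh2* (a basic helix-loop-helix factor, 3.95 ± 0.25) in log2 units. None of these 7 overlapped between the regions. At the other end stood *A830009L08Rik*, a long noncoding RNA, with 0.352, 1.66, 0.186, 0.231 and 0.929 CPM in hippocampus and 21.8, 17.5, 14.6, 24.5 and 22 in cortex (log2 fold change -4.92 ± 0.40, adjusted *P* = 0.000208). The cation channel gene *Trpa1* had 0.586, 3.08, 0, 0.403 and 0.697 CPM in hippocampus and 28.8, 20.1, 17.3, 24.6 and 24.5 in cortex (log2 fold change -4.67 ± 0.58, adjusted *P* = 0.00216). Both were near 0 in hippocampus except for mouse 2, which had the highest hippocampus value of each. Without mouse 2 both differences were larger (log2 fold change -5.59 ± 0.23, adjusted *P* = 5.05e-09, and log2 fold change -5.79 ± 0.25, adjusted *P* = 7.99e-08).

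Other genes at this end were *Hspb3* (a small heat shock protein, -4.54 ± 0.25), *Col8a1* (a collagen, -3.67 ± 0.45), *Trbc2* (-3.54 ± 0.43), *Plb1* (a phospholipase, -3.28 ± 0.16), *Cplx3* (a complexin of the subplate, -3.10 ± 0.57) and *Mef2c*. *Hspb3* measured 0.645, 1.23, 0.31, 0.519 and 0.348 CPM in hippocampus and 16.2, 12.5, 14.3, 14.9 and 12.9 in cortex (log2 fold change -4.54 ± 0.25, adjusted *P* = 3.41e-06), and *Plb1* measured 1.06, 1.17, 1.49, 1.44 and 1.34 CPM in hippocampus and 15.7, 9.23, 9.82, 14.9 and 14.3 in cortex (log2 fold change -3.28 ± 0.16, adjusted *P* = 1.09e-06). Neither gene overlapped between the regions. Without mouse 2 the log2 fold change was -4.33 for *Col8a1* and -3.76 for *Cplx3*, and without mice 2 and 4 it was -4.48 for *Trbc2*.

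Genes of dentate granule cells and CA fields were mostly higher in hippocampus, against 22.9% of all genes tested. In the dentate granule list, 10 of 14 were higher and 2 lower, with a median log2 fold change of 1.40 beside 0.0053 over all genes. The synaptic organizer *C1ql2* of mossy fibres had 6.57, 2.9, 6.75, 14.6 and 10.0 CPM in hippocampus and 0.507, 0.221, 0.578, 0.0635 and 0.246 in cortex (log2 fold change 4.58 ± 0.40, adjusted *P* = 8.07e-05). *Dsp*, which encodes desmoplakin, had 5.57, 3.02, 3.41, 4.55 and 6.16 CPM in hippocampus and 0.761, 0.591, 0.77, 0.508 and 1.11 in cortex (log2 fold change 2.59 ± 0.19, adjusted *P* = 8.74e-06). Neither overlapped between the regions, and the lowest hippocampus value of each was in mouse 2. The 2 lower members were *Stc1* (-0.43 ± 0.10) and *Fam163b* (-0.21 ± 0.063), whose regions overlapped, and the latter was not called without mouse 1 or without mouse 4 (adjusted *P* = 0.0885 and 0.0749).

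Of 20 genes of CA fields, 13 were higher and 3 lower (median 0.55). *Fibcd1* had 151, 83.8, 114, 102 and 116 CPM in hippocampus and 6.47, 10.0, 5.97, 5.53 and 6.58 in cortex, and *Wfs1*, an endoplasmic reticulum protein of CA1 neurons, had 79.7, 62.1, 68.8, 71.9 and 97.7 in hippocampus and 36, 34, 31.9, 32 and 35.4 in cortex (log2 fold change 1.16 ± 0.075, adjusted *P* = 4.47e-06). In both, every hippocampus exceeded every cortex. The mineralocorticoid receptor gene *Nr3c2* was among the genes with the smallest *P* values, with 145, 76, 134, 112 and 138 CPM in hippocampus and 23.8, 12.8, 19.8, 20.9 and 23 in cortex (log2 fold change 2.59 ± 0.057, adjusted *P* = 7.31e-09). The 3 lower members were *Mpped1* (-1.43 ± 0.13), *Spock1* (-0.60 ± 0.058) and *Coch* (-0.40 ± 0.081), so that membership in this list did not fix the direction. *Mpped1* ran from 235 to 466 CPM in hippocampus and 812 to 865 CPM in cortex.

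Factors that pattern the medial cortical wall were called in both directions, with 10 of 15 members tested higher and 3 lower (median 0.85). The share called was 86.7%, beside 43.1% of all genes. *Wnt8b*, *Wnt3a* and *Lmx1a*, genes of the cortical hem, were too low to be tested. The homeobox gene *Emx2* had 29.1, 17.6, 36, 28.1 and 34.1 CPM in hippocampus and 7.23, 6.42, 6.74, 6.86 and 8.43 in cortex (log2 fold change 2.00 ± 0.12, adjusted *P* = 2.76e-06). Its relative *Emx1* went the other way, with 22, 26.1, 25.6, 24.1 and 26.4 CPM in hippocampus and 50.5, 53.4, 41.9, 49 and 55.8 in cortex (log2 fold change -1.01 ± 0.070, adjusted *P* = 5.74e-06). So did *Nr2f1*, a nuclear receptor gene graded across the cortex, with 86.4, 121, 92.5, 93.5 and 76.4 CPM in hippocampus and 179.6, 216, 140.2, 154 and 160.2 in cortex (log2 fold change -0.86 ± 0.072, adjusted *P* = 2.42e-05). For all 3 genes the regions did not overlap. *Dmrt3* (5.10 ± 0.52) had 1.48 to 4.24 CPM in hippocampus and at most 0.221 CPM in cortex, and its log2 fold change was 6.14 without mouse 2. *Lef1*, the Wnt effector required for the dentate gyrus, was higher in hippocampus (1.28 ± 0.30), as were the nuclear factor I genes *Nfia* (0.87), *Nfib* (0.85) and *Nfix* (0.51).

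Promoter sequence was read from RefSeq (GRCm38.p6), 250 bases before to 50 after each start. The E-box CAGATG, the form bound by NEUROD-type factors, occurred on either strand in 16.4% of 617 promoters of genes over 2-fold higher in hippocampus, in 12.9% of 325 promoters of genes over 2-fold lower and in 11.9% of 14206 promoters of all genes tested. The TATA box letters TATAAA occurred in 9.08%, 12.0% and 7.28% of these promoters. The letters ATCAAAG, TAAAAATA and TAGGTCA of TCF/LEF, MEF2 and ROR factors were each found in under 3% of promoters in all 3 sets. These matches are descriptions of letters and were not tested. To show what such a promoter looks like, the 200 bases before the start are given for 3 genes higher in hippocampus and for *Cux2*, which was lower, with the E-box (CAGATG, or CATCTG where it lies on the other strand) in capitals and the start at the right end.
*Prox1* (chr1:190170828-190171027, minus strand, E-box starting 179 bases before the start): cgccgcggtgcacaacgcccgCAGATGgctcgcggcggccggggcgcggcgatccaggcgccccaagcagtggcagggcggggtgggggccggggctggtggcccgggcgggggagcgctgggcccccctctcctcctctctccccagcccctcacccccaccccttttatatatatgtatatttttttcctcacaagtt
*Nhlh2* (chr3:102009945-102010144, plus strand, E-box starting 127 bases before the start): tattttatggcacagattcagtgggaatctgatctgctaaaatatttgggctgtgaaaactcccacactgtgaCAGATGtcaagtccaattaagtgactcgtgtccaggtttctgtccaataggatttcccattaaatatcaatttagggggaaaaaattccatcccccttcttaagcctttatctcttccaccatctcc
*Wfs1* (chr5:36988983-36989182, minus strand, E-box starting 170 bases before the start): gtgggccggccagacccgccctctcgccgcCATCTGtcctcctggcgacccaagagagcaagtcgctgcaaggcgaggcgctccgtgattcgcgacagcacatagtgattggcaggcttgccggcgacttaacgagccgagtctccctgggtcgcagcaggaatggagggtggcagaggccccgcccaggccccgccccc
*Cux2* (chr5:122047826-122048025, minus strand, E-box starting 79 bases before the start): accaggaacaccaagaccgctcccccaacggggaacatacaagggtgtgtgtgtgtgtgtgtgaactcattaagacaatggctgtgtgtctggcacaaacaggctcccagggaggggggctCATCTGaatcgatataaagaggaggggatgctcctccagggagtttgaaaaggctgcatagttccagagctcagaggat

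Of 13 genes of neocortical upper layers, 11 were lower in hippocampus, against 20.1% of all genes tested, and none was higher (median -1.40). The homeobox genes *Cux1* and *Cux2* mark layers 2 to 4. *Cux1* had 66.8, 95.1, 73.1, 83.4 and 70.6 CPM in hippocampus and 229, 177, 199, 218 and 201 in cortex (log2 fold change -1.40 ± 0.12, adjusted *P* = 0.00013), and *Cux2* had 30.8, 58.4, 36.3, 38.6 and 34.4 in hippocampus and 190.2, 165, 145, 189 and 178 in cortex (log2 fold change -2.15 ± 0.17, adjusted *P* = 0.00027). *Pou3f2*, a POU factor of the same layers, was lower as well (-2.21 ± 0.15), whereas *Pou3f3* (-0.14 ± 0.081) and *Mdga1* (-0.072 ± 0.086) were not called. Every hippocampus lay below every cortex for 10 of the 13 genes, where the share over all genes was 25.1% in either direction. The hippocampus of mouse 2 was the highest of its region for *Cux1*, *Cux2* and *Mef2c*, but not for *Rorb* (8.82 CPM, others 7.38 to 10.0). Without mice 2 and 4, 12 of the 13 genes were lower.

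Genes of deep layers were divided. Of 19 genes, 8 were lower and 5 higher in hippocampus (median -0.52), a share called of 68.4% beside 43.1% of all genes. The lower ones included the subplate gene *Cplx3*, with 1.93, 10.9, 5.14, 2.02 and 2.27 CPM in hippocampus and 38.6, 23.8, 37.9, 28.1 and 47.2 in cortex (log2 fold change -3.10 ± 0.57, adjusted *P* = 0.0114), and genes of layer 6 neurons. *Syt6*, a synaptotagmin, had 7.21, 10.7, 7.68, 7.95 and 6.39 CPM in hippocampus and 45.6, 26.8, 59.8, 44.5 and 47.7 in cortex (log2 fold change -2.46 ± 0.26, adjusted *P* = 0.000852), and *Rprm* had 33, 84.5, 39.9, 27.4 and 32.2 in hippocampus and 175, 215, 207, 197 and 203 in cortex (log2 fold change -2.32 ± 0.24, adjusted *P* = 0.00109). *Tbr1*, the factor that specifies layer 6, was lower by less (-0.79 ± 0.12). *Crym*, a thyroid hormone binding protein listed for layer 5, went the other way with 1172, 823, 1132, 957 and 1166 CPM in hippocampus and 61.3, 132, 82.6, 74.2 and 82.2 in cortex (log2 fold change 3.64 ± 0.26, adjusted *P* = 0.000272). *Bcl11b*, a zinc finger factor shared by layer 5 and hippocampal neurons, had 169, 149, 154, 132 and 187 CPM in hippocampus and 70.4, 82.6, 97.9, 67.6 and 78.3 in cortex (log2 fold change 1.00 ± 0.093, adjusted *P* = 0.000108). For *Fezf2*, which specifies subcerebral projection neurons, 44.7 to 83.8 CPM in hippocampus and 54.7 to 65 CPM in cortex were measured, and it was not called (log2 fold change 0.11 ± 0.11, adjusted *P* = 0.425). Without mice 2 and 4, 11 of the 19 genes were lower and 6 higher.

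Cajal-Retzius cells, the early neurons of the marginal zone and the hippocampal fissure, were represented by 11 genes, of which 7 were higher and none lower (median 1.80). The share called was 63.6%, beside 43.1% of all genes. Of these 11, 1 was lower without mouse 2, and 2 were lower without mouse 4 and without both. *Trp73*, which encodes the p53 relative p73, had 12, 7.77, 14.7, 10.5 and 13.9 CPM in hippocampus and 1.97, 2.29, 4.17, 1.33 and 3.14 in cortex (log2 fold change 2.22 ± 0.17, adjusted *P* = 1.09e-05). *Nhlh2* had 11, 4.99, 17.2, 17.2 and 13.6 CPM in hippocampus and 0.571, 0.96, 1.16, 0.762 and 0.615 in cortex (log2 fold change 3.95 ± 0.25, adjusted *P* = 6.23e-06). The regions did not overlap in either gene. *Reln*, the secreted protein of these cells that interneurons also make, ranged from 65 to 183 CPM in hippocampus and 87.6 to 149 CPM in cortex and was not called (log2 fold change -0.10 ± 0.22, adjusted *P* = 0.745).

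Interneuron genes moved in both directions, 6 higher and 8 lower of 21, a share called of 66.7% beside 43.1% of all genes. *Gad1*, which makes GABA from glutamate, had 186, 169, 172, 164 and 167 CPM in hippocampus and 104, 111, 115, 105 and 108 in cortex (log2 fold change 0.66 ± 0.048, adjusted *P* = 7.55e-06), and *Gad2* was higher by a similar amount (0.77 ± 0.070). The neuropeptide gene *Cck* had 197, 151, 210.2, 228 and 248 CPM in hippocampus and 90.7, 67.1, 105, 90.6 and 109 in cortex (log2 fold change 1.16 ± 0.051, adjusted *P* = 5.5e-07), and *Htr3a*, the serotonin-gated channel of interneurons from the caudal ganglionic eminence, was also higher (1.45 ± 0.16). *Vip*, another neuropeptide gene of the list, was lower, with 6.16, 6.47, 6.5, 4.55 and 6.27 CPM in hippocampus and 13.8, 7.9, 12.2, 15.9 and 15.7 in cortex (log2 fold change -1.11 ± 0.19, adjusted *P* = 0.00197). *Satb1* (-1.07 ± 0.19), a factor of interneurons from the medial ganglionic eminence, was lower as well, while *Lhx6* (-0.17 ± 0.071) was not called. *Pvalb* was too low to be tested at this age. Without mouse 3 the number of lower genes was 5.

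Glutamate receptor subunits differed one by one. Among kainate receptor genes, 4 of 7 were higher and 2 lower, a share called of 85.7% beside 43.1% of all genes. Without mouse 1, 3 or 4 the number of lower ones was 1. Besides *Grik4*, *Grik2* had 70.9, 66.4, 76.4, 70.9 and 71.5 CPM in hippocampus and 38, 43.3, 46.4, 36.8 and 37.2 in cortex (log2 fold change 0.83 ± 0.061, adjusted *P* = 8e-06), while *Grik5* differed little (-0.040 ± 0.039, not called). Their auxiliary subunits split. *Neto1* was higher (0.65 ± 0.12) and *Neto2* lower (-0.56 ± 0.075), both without overlap. Smaller calls, those of *Grik1* (0.23 ± 0.073) and of *Grik3* (-0.55 ± 0.14), were each lost without mouse 1, 3 or 4. The adjusted *P* was then 0.126, 0.104 and 0.092 for *Grik1* and 0.0645, 0.0595 and 0.0675 for *Grik3*.

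Of 15 AMPA receptor genes, 6 were higher and 5 lower (median -0.13), a share called of 73.3% beside 43.1% of all genes. The subunit gene *Gria1* had 662, 517, 587, 547 and 696 CPM in hippocampus and 231, 238, 222, 239.7 and 242 in cortex (log2 fold change 1.35 ± 0.067, adjusted *P* = 1.22e-06). *Gria2*, whose product sets the calcium permeability of the receptor, differed by 0.19 ± 0.065, a call that was lost without mouse 1 and without mouse 5 (adjusted *P* = 0.11 and 0.129), and *Gria3* was not called (-0.082 ± 0.089). The auxiliary subunit gene *Shisa6* had 421, 318, 395, 333 and 410.5 CPM in hippocampus and 95.2, 63.4, 76.7, 84.2 and 88.5 in cortex (log2 fold change 2.21 ± 0.060, adjusted *P* = 2.76e-08). *Cacng8*, the TARP gamma-8, was higher (0.87 ± 0.085), whereas *Cacng3* (-0.99 ± 0.087), *Cacng4* (-0.48 ± 0.052) and the cornichon gene *Cnih3* (-0.59 ± 0.045) were lower. All of these auxiliary genes were free of overlap. Without mice 2 and 4 the number of lower AMPA genes was 9.

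Among 6 NMDA receptor genes tested, 3 were higher and 1 lower, a share called of 66.7% beside 43.1% of all genes. The number of lower ones was 2 without mouse 2 and 0 without mouse 1, 3 or 5. *Grin2c* had 6.92, 4.5, 5.57, 7.61 and 7.32 CPM in hippocampus and 1.27, 1.7, 1.99, 0.762 and 1.48 in cortex (log2 fold change 2.15 ± 0.25, adjusted *P* = 0.000182), and *Grin3a* was higher by less (0.39 ± 0.081). The obligatory subunit gene *Grin1* was not called (log2 fold change 0.16 ± 0.060, adjusted *P* = 0.0629). *Grin2b*, the subunit that prevails early in life, had 329.9, 571, 289, 244 and 302 CPM in hippocampus and 432, 338, 457, 448 and 513 in cortex and was not called (log2 fold change -0.40 ± 0.27, adjusted *P* = 0.298). Its hippocampus value in mouse 2 exceeded every cortex, and without mouse 2 the gene was lower in hippocampus (log2 fold change -0.67 ± 0.071, adjusted *P* = 4.64e-05). The same held for *Grm2*, a presynaptic metabotropic receptor gene (log2 fold change -0.41 ± 0.22, adjusted *P* = 0.2 with all mice, log2 fold change -0.65 ± 0.064, adjusted *P* = 1.62e-06 without mouse 2). Of 7 metabotropic receptor genes, 1 was higher and 2 lower (*Grm3*, -0.69 ± 0.16, and *Grm8*, -0.96 ± 0.10), a share called of 42.9% beside 43.1% of all genes, and without mouse 2 the numbers were 2 and 4.

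GABA-A receptor alpha, gamma and delta subunit genes were split, 3 higher and 3 lower of 9. The share called was 66.7%, beside 43.1% of all genes. *Gabra5*, whose subunit is abundant in hippocampal pyramidal cells, had 319, 308, 326, 275 and 288 CPM in hippocampus and 169.7, 172, 178, 173 and 171 in cortex (log2 fold change 0.81 ± 0.047, adjusted *P* = 2.12e-06). *Gabra2* was higher as well, with 66.1, 63.8, 55.6, 56.2 and 47.5 CPM in hippocampus and 25, 25.9, 23.7, 18.7 and 21.5 in cortex (log2 fold change 1.33 ± 0.068, adjusted *P* = 1.22e-06). *Gabra3* (-0.70 ± 0.15) and *Gabrd* (-0.97 ± 0.15), the subunit of extrasynaptic receptors, were lower. *Gabra4* (-0.14 ± 0.044) was near the threshold and was not called without mouse 1, 3, 4 or 5 (adjusted *P* = 0.0956, 0.0775, 0.0725 and 0.105).

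Among 21 receptor genes for serotonin, acetylcholine, dopamine, noradrenaline, opioids and steroids, 9 were higher and 8 lower (5 lower without mouse 5). The share called was 81.0%, beside 43.1% of all genes. The dopamine receptors gave the widest contrast. *Drd5* had 6.21, 4.32, 4.71, 5.94 and 7.38 CPM in hippocampus and 0.888, 0.738, 1.22, 0.762 and 0.738 in cortex (log2 fold change 2.70 ± 0.21, adjusted *P* = 1.03e-05), and *Drd1* had 3.81, 6.78, 5.39, 5.3 and 4.07 in hippocampus and 17.6, 12.2, 25, 17 and 18.5 in cortex (log2 fold change -1.82 ± 0.21, adjusted *P* = 0.00039). Both couple to stimulation of adenylyl cyclase, yet they lay on opposite sides without overlap. *Htr4*, a serotonin receptor of the same coupling, had 4.63, 3.82, 6.25, 5.42 and 6.04 CPM in hippocampus and 0.697, 0.738, 0.77, 1.14 and 0.923 in cortex (log2 fold change 2.60 ± 0.18, adjusted *P* = 5e-06), while *Htr2a* was lower, with 2.99, 4.19, 3.1, 3.05 and 2.15 CPM in hippocampus and 9.95, 5.61, 7.96, 9.97 and 8.67 in cortex (log2 fold change -1.45 ± 0.21, adjusted *P* = 0.000639). *Htr1a*, the inhibitory serotonin receptor, was higher (1.05 ± 0.091), as were *Adra1d* (2.50 ± 0.20) and *Chrm3* (1.17 ± 0.10). Of the corticosteroid receptors, *Nr3c2* was higher, as given above, and the glucocorticoid receptor gene *Nr3c1* was not called (-0.0037 ± 0.077).

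Synaptic organizers, a list of secreted and membrane proteins, were mostly on the hippocampal side where they differed much. Of 21 genes, 8 were higher and 6 lower (median 0.051), with 4 over 2-fold higher and none over 2-fold lower. The share called was 66.7%, beside 43.1% of all genes. *Nptx1*, a pentraxin that clusters AMPA receptors, had 201, 135, 206, 189 and 238 CPM in hippocampus and 50.0, 33.6, 53.9, 44 and 50.1 in cortex (log2 fold change 2.06 ± 0.053, adjusted *P* = 2.6e-08), and *Nptx2* was also higher (1.67 ± 0.080). *Cbln4* was higher (1.75 ± 0.20) and *Cbln1* lower (-0.68 ± 0.11), each with overlapping regions. Among genes of membrane proteins, *Lrrtm3* (-0.87 ± 0.095) and *Lrrtm4* (-0.43 ± 0.068) were lower, and the neurexin genes differed by at most 0.22 in size on the log2 scale.

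Ephrins and their Eph receptors guide axons by contact. Of 19 genes, 8 were higher and 6 lower, a share called of 73.7% beside 43.1% of all genes. The receptor gene *Epha6* had 58, 43.7, 55.1, 52.6 and 72.7 CPM in hippocampus and 11, 10.4, 10.4, 8.32 and 10.7 in cortex (log2 fold change 2.46 ± 0.094, adjusted *P* = 2.77e-07), and *Epha4* (0.75 ± 0.083), *Epha5* (0.98 ± 0.074) and *Epha7* (0.94 ± 0.12) were higher too. Their ligand gene *Efna5* lay on the cortical side, with 7.39, 10.4, 6.56, 12.6 and 5.75 CPM in hippocampus and 46.7, 33.3, 34.3, 42 and 39.1 in cortex (log2 fold change -2.22 ± 0.18, adjusted *P* = 0.000143). *Efnb2* (-1.34 ± 0.11) and the kinase-inactive receptor gene *Ephb6* (-1.27 ± 0.19) were lower as well. None of these genes overlapped between regions.

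Of 22 Wnt ligands and modulators tested, 9 were higher and 4 lower, a share called of 59.1% beside 43.1% of all genes. *Wnt2* had 9.09, 7.83, 8.92, 8.88 and 12.6 CPM in hippocampus and 0.634, 0.664, 0.514, 0.381 and 0.615 in cortex (log2 fold change 4.06 ± 0.17, adjusted *P* = 3.66e-07). *Wnt5a* (1.44 ± 0.14) and *Wnt11* (2.50 ± 0.32) were higher, while *Wnt9a*, with 4.16, 4.01, 2.97, 6.28 and 2.96 CPM in hippocampus and 18.1, 12.5, 14.2, 18.8 and 19.6 in cortex, was lower (log2 fold change -2.04 ± 0.16, adjusted *P* = 1.94e-05), as were *Wnt2b* (-1.87 ± 0.24) and the antagonist gene *Sfrp2* (-0.87 ± 0.088). *Axin2*, a general target of the pathway, was not called (0.016 ± 0.061). The ligands *Wnt2* and *Wnt2b* thus sat on opposite sides.

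The neurotrophin ligands *Bdnf* and *Ntf3* were both higher in hippocampus. *Bdnf* had 26.3, 19, 27.6, 27.6 and 31.7 CPM in hippocampus and 5.77, 4.8, 5.2, 5.14 and 4.61 in cortex (log2 fold change 2.36 ± 0.11, adjusted *P* = 6.78e-07), and *Ntf3* had 8.15, 17.8, 9.29, 12 and 13.8 CPM in hippocampus and 3.55, 5.17, 6.23, 4.76 and 4.86 in cortex (log2 fold change 1.28 ± 0.16, adjusted *P* = 0.00022). Neither ligand overlapped between regions. *Ntrk2*, the receptor for BDNF, was lower (-0.40 ± 0.073), and *Ntrk3*, the receptor for NT-3, was higher (0.31 ± 0.10). *Ngfr* (-0.47 ± 0.14) lost its call without mouse 1, 3 or 5 (adjusted *P* = 0.0665, 0.0756 and 0.064).

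Among 13 immediate early genes, which neurons switch on with activity, 5 were higher and none lower (median 0.27), a share called of 38.5% beside 43.1% of all genes. *Arc* had 17.9, 11, 18.5, 20.1 and 19.7 CPM in hippocampus and 6.78, 6.64, 7.51, 6.92 and 6.77 in cortex (log2 fold change 1.32 ± 0.12, adjusted *P* = 2.71e-05). *Fos* had 9.91, 10.8, 10.5, 12.4 and 7.9 CPM in hippocampus and 3.93, 6.05, 6.1, 3.81 and 4.18 in cortex (log2 fold change 1.11 ± 0.15, adjusted *P* = 0.000278), and *Btg2* had 17.8, 14.2, 23.1, 20.9 and 19.7 in hippocampus and 7.99, 6.72, 10.4, 6.99 and 6.46 in cortex (log2 fold change 1.32 ± 0.10, adjusted *P* = 1.08e-05). These 3 were separated between regions, whereas *Junb* (0.29 ± 0.11), *Egr1* (0.031 ± 0.12) and *Npas4* (0.13 ± 0.15) were not called.

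Genes of dividing cells were nearly all higher in hippocampus, 15 of 16 against 22.9% of all genes tested, with a median of 0.78. *Top2a*, the topoisomerase of mitotic cells, had 26.6, 22.6, 24, 23.2 and 25.9 CPM in hippocampus and 13.8, 10.9, 12.8, 10.7 and 12.3 in cortex (log2 fold change 1.02 ± 0.066, adjusted *P* = 4.14e-06). *Mki67* differed by less (0.46 ± 0.096), with overlap between regions, and the replication clamp *Pcna*, the exception, was not called (0.0061 ± 0.058). Without mouse 2, without mouse 4 and without both, 15 of the 16 genes were again higher. Of 12 genes of progenitors and newborn neurons, 9 were higher and 1 lower (median 0.89), a share called of 83.3% beside 43.1% of all genes. The proneural factor *Neurog2* had 3.87, 1.54, 6.19, 5.76 and 6.16 CPM in hippocampus and 0.127, 0.0738, 0, 0.127 and 0.123 in cortex (log2 fold change 5.59 ± 0.34, adjusted *P* = 3.11e-06). *Eomes*, which marks intermediate progenitors, had 17.2, 5.92, 21.6, 15.3 and 18.9 CPM in hippocampus and 0.0634, 0.443, 5.52, 0.127 and 0.431 in cortex (log2 fold change 3.92 ± 0.73, adjusted *P* = 0.0101), with the single high cortex value in mouse 3 (log2 fold change 5.73, adjusted *P* = 0.000153 without mouse 3), and was not called without mice 2 and 4 (log2 fold change 3.40 ± 1.02, adjusted *P* = 0.124). *Dcx*, which newborn and migrating neurons express, was lower (log2 fold change -0.56 ± 0.12, adjusted *P* = 0.00882).

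Of 14 astrocyte genes, 11 were higher and 2 lower (median 0.50), a share called of 92.9% beside 43.1% of all genes. *Gfap*, the intermediate filament of astrocytes and of dentate stem cells, had 305, 192, 383, 382 and 331 CPM in hippocampus and 107, 119, 114, 94.6 and 124 in cortex (log2 fold change 1.48 ± 0.20, adjusted *P* = 0.00259). *Sox9* (0.95 ± 0.084), the glutamate transporter gene *Slc1a3* (0.93 ± 0.048) and *Agt* (1.82 ± 0.30) were higher as well. The 2 lower genes were *Aldh1l1* (-0.20 ± 0.064) and *Gjb6* (-0.76 ± 0.23). *Aldh1l1* was not called without mouse 1, 4 or 5 (adjusted *P* = 0.0748, 0.0619 and 0.104). *Gjb6* was not called without mouse 1, 3 or 5 (adjusted *P* = 0.0649, 0.0909 and 0.076). The number of lower genes was 1 without mouse 3 or 4 and 0 without mouse 1 or 5. In ependyma, the ciliated lining of the ventricles, 6 of 6 genes were higher, against 22.9% of all genes tested. *Foxj1*, the master factor of motile cilia, had 17.3, 10.7, 18.2, 24.6 and 21.3 CPM in hippocampus and 4.44, 6.35, 3.79, 4.26 and 4.55 in cortex (log2 fold change 1.96 ± 0.25, adjusted *P* = 0.000891), so that no cortex reached the lowest hippocampus. Of 6 choroid plexus genes tested, 3 were higher, *Ttr*, *Folr1* (2.42 ± 0.36) and *Kl* (2.08 ± 0.29). The share called was 50%, beside 43.1% of all genes, and 1 gene was lower without mouse 3. The list summed to 17.7 to 38.3 CPM in hippocampus and 9.08 to 12.0 CPM in cortex. The part of ventricular lining taken along in the dissection was not tested.

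Microglial genes were higher by small amounts, with a median of 0.43 and with overlap for each of them. Of 10 genes, 8 were called higher, against 22.9% of all genes tested. *Cx3cr1*, the fractalkine receptor of microglia, had 36.8, 23.4, 36, 39 and 43.1 CPM in hippocampus and 24, 19.3, 23.8, 24.8 and 29.9 in cortex (log2 fold change 0.54 ± 0.065, adjusted *P* = 0.00017), which is higher in hippocampus in all 5 mice although the regions overlap. In the oligodendrocyte lineage, 4 of 14 genes were higher and 1 lower, a share called of 35.7% beside 43.1% of all genes. *Olig2* (0.42 ± 0.084), *Sox10* (0.40 ± 0.078) and the precursor receptor gene *Pdgfra* (0.27 ± 0.057) were higher. The myelin gene *Mobp* was lower (-2.57 ± 0.43), at under 3 CPM throughout and too low to be tested without mouse 2, whereas *Mbp* (-0.19 ± 0.11) was not called. This balance rested on mouse 4, whose hippocampus was the highest of its region for *Mbp*, and without mouse 4 there were 7 lower genes and 3 higher ones. Without mice 2 and 4 there were 5 and 4. Endothelial and mural genes gave 3 higher and none lower of 14, a share called of 21.4% beside 43.1% of all genes. The numbers were 1 and 0 without mouse 4 and without the mouse as a block, 3 and 1 without mouse 2, and 1 and 4 without both mice. Genes of meninges gave none of 10, with an unadjusted *P* value under 0.05 for 1 of them, and 3 lower without mouse 4. Blood genes gave none of 5, with an unadjusted *P* value under 0.05 for 1, and 3 lower without mouse 2.

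Genes of neighbouring brain parts were also counted. Of 8 thalamic and habenular genes tested, 3 were higher and none lower, a share called of 37.5% beside 43.1% of all genes. *Tcf7l2* was not called although the regions did not overlap (log2 fold change 2.89 ± 1.37, adjusted *P* = 0.165). Without mouse 4, whose hippocampus held 226 CPM, *Tcf7l2* was called at a smaller size (log2 fold change 0.88 ± 0.23, adjusted *P* = 0.0163) and 5 of the list were higher. Without the mouse as a block the number was also 5, but *Tcf7l2* was not among them (log2 fold change 4.42 ± 1.66, adjusted *P* = 0.068). Of 11 genes of striatal projection neurons, 3 were higher and 5 lower, a share called of 72.7% beside 43.1% of all genes. *Ppp1r1b*, the dopamine-regulated phosphatase inhibitor DARPP-32, had 14, 9.86, 14.4, 11.8 and 16.6 CPM in hippocampus and 42.9, 16.6, 75.6, 28.4 and 34.7 in cortex (log2 fold change -1.45 ± 0.24, adjusted *P* = 0.00553), with the highest level in the cortex of mouse 3. Without mice 2 and 4, *Ppp1r1b* was not called (log2 fold change -1.71 ± 0.35, adjusted *P* = 0.0572). The list summed to 189.5 to 318 CPM in cortex and 119 to 141 CPM in hippocampus. Neocortical neurons express several of its members too. Of the cholinergic and septal genes, *Slc18a3*, the vesicular acetylcholine transporter, was higher (1.23 ± 0.24), at 0.98 to 1.41 CPM in hippocampus and 0.381 to 0.697 CPM in cortex, while *Slc5a7* was not called (0.24 ± 0.24) and *Chat* was too low to be tested.

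**Figure D4:**
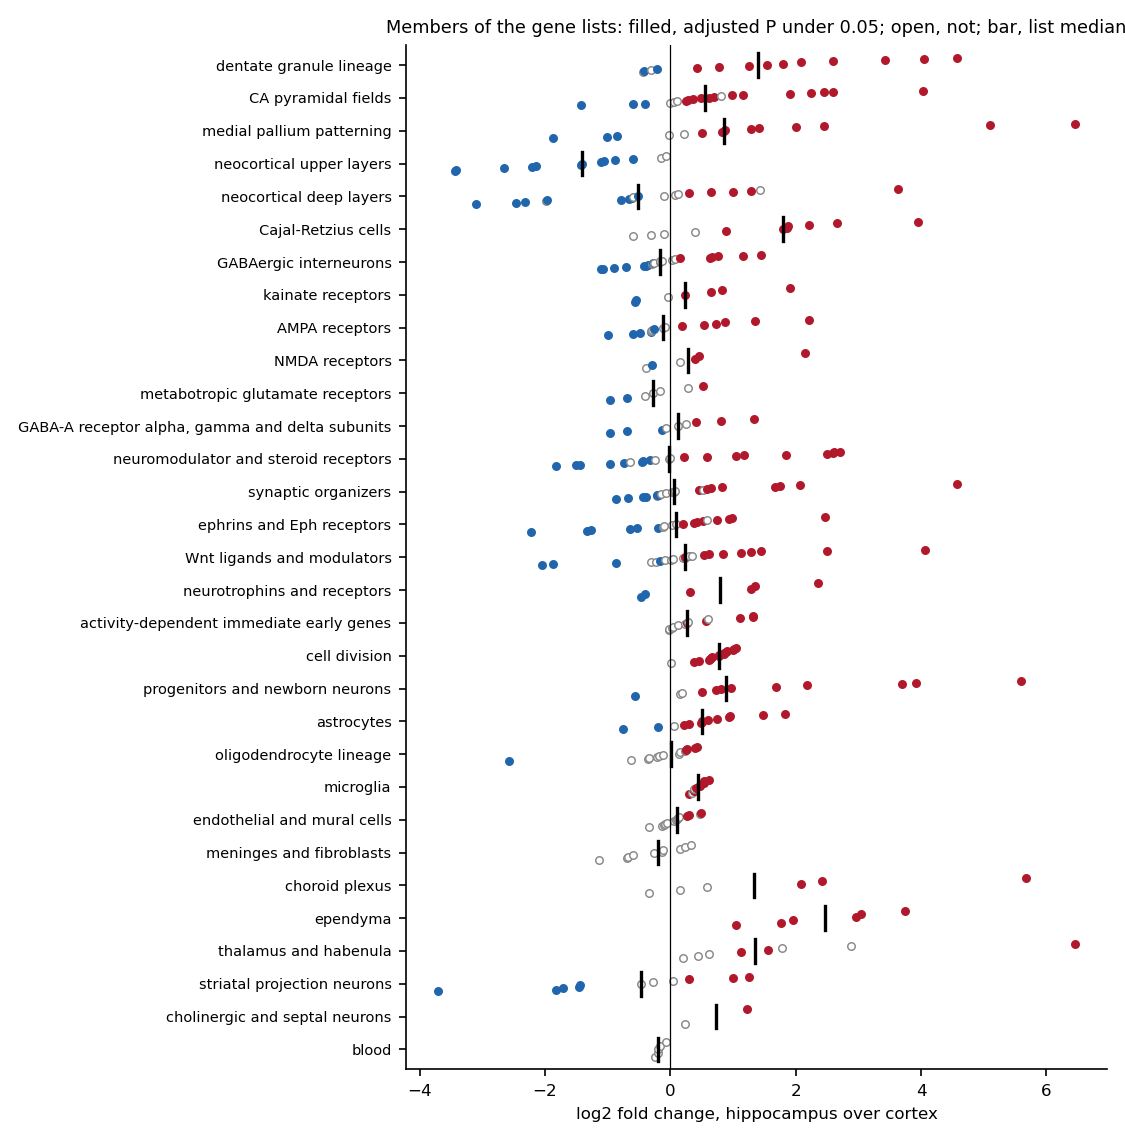
Log2 fold change of hippocampus over cortex for each tested member of 31 gene lists. Filled points were called (red higher, blue lower in hippocampus), open points were not, and bars are list medians, from -1.40 for neocortical upper layers to 2.46 for ependyma.

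By kind of gene, 44.4% of 13875 protein-coding genes and 32.2% of 774 long noncoding genes were called. Differences over 2-fold were found in 6.98% of the former and 12.4% of the latter. The long noncoding genes over 2-fold numbered 41 higher and 55 lower in hippocampus. Over all genes tested of each kind, the median of the mean level was 1.84 CPM for long noncoding and 27.4 CPM for protein-coding genes. No gene met the definition of a switch, under 0.5 CPM in every library of 1 region and above 5 CPM in every library of the other. With 1 CPM as the lower border, *Wnt2*, *Lhx9*, *Car12* and *Chrm5*, a muscarinic receptor gene, met it, all in hippocampus.

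The Ube3aOE mice share no library with the WT mice, so they give the region difference a second time in other animals of another genotype. There, 4914 of 15147 genes were called between hippocampus and cortex (32.4%), 2518 higher (16.6%) and 2396 lower in hippocampus (15.8%). Over 2-fold there were 819 (5.41%), 557 higher (3.68%) and 262 lower (1.73%). Of the 1088 genes over 2-fold in WT mice, 1059 could be tested in Ube3aOE mice, and 1052 of those (99.3%) had the same sign. Of the 1059, 866 (81.8%) were also called in the same direction and none in the opposite one. Of the 6496 WT calls of any size, 6460 could be tested in Ube3aOE mice. Of those, 6305 (97.6%) had the same sign, and 3917 (60.6%) were also called in the same direction. The median size of the 1059 differences over 2-fold was 1.42 on the log2 scale in WT and 1.21 in Ube3aOE mice. The genes were chosen on their WT values, so these medians do not stand on an equal footing. Across 14952 genes tested in both, the log2 fold changes of the genotypes correlated with Pearson's r = 0.897, given as a description since genes are not independent.

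*Prox1* had a log2 fold change of 3.00 in Ube3aOE mice (adjusted *P* = 0.00331), and *Mef2c* -3.21 (adjusted *P* = 0.00225). All 5 marker genes were called there in the same direction. *Fibcd1* differed less than in WT mice (log2 fold change 2.54, adjusted *P* = 0.03), and *Ntf3* (0.40, adjusted *P* = 0.62) was not called. The difference between genotypes was itself tested as an interaction of genotype and region. With edgeR, 0 of 15661 genes passed (0%), 944 had an unadjusted *P* value under 0.05 (6.03%), and the smallest adjusted *P* was 0.797. DESeq2 and limma voom gave 0 as well. Cell division genes were higher in Ube3aOE hippocampus for the same 15 members, as were the same 6 ependymal genes. The 11 lower genes of neocortical upper layers were called again too. Several lists recurred less, beside 60.6% of all WT calls tested there. Called again in the same direction were 10 of 17 neuromodulator and steroid receptor genes, 8 of 14 synaptic organizers and 7 of 14 ephrins and Eph receptors. For immediate early genes it was 2 of 5, and for endothelial and mural genes 0 of 3.

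**Figure D5:**
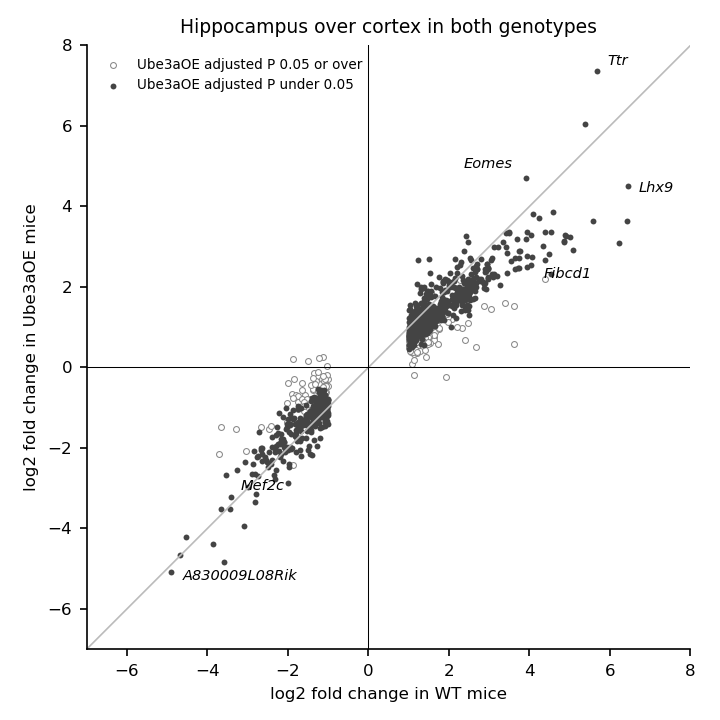
Log2 fold change of hippocampus over cortex in Ube3aOE mice against that in WT mice for the 1059 genes over 2-fold in WT mice that were tested in both. Filled points were called in Ube3aOE mice too, the grey line marks equal values, and 1052 points lie on the same side of 0 in both genotypes.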

How the data were processed

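Stranded mRNA libraries were prepared from the hippocampus and cortex of each pup. The authors deposited 1 file per library with the count of reads on each of 47729 genes, whole numbers without normalization. The submitters' processing notes name HISAT2 2.1.0, HTSeq 0.11.2 and the build GRCm38 (mm10). Lines for reads outside genes, not aligned or aligned to more than 1 place were left out, and 69.7% to 80.8% of the reads of a WT library stood on genes.

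Groups, mouse numbers and sex came from the labels, in which equal numbers mark tissues of the same animal. As a check, the deviations of such tissues from the group means correlated across genes at 0.191 to 0.231 in mice 1, 2, 3 and 5 and at -0.049 in mouse 4, against a median of -0.056 for unlike numbers. The hippocampus of mouse 4 correlated most with the cortex of mouse 3 (0.088). For mouse 4 the check therefore did not bear out the pairing, which rests on the label alone. Neither labels nor paper give a sequencing batch.

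The 10 WT libraries were fitted with edgeR 4.0.16 in R 4.3.3 (filterByExpr, TMM, robust quasi-likelihood F test), with mouse as a block. Ube3aOE libraries were fitted alike, and the interaction on all 20. SEs come from the F statistic. In simulated data for the WT comparison, 43.1% of 197 genes changed by 0.5 on the log2 scale and 95.9% of 196 genes changed by 1 were recovered. The simulation gave every gene the same dispersion, changed few genes and held no outlying library. Its rates therefore describe that setting and not these libraries. Alternatives were no block, DESeq2 1.42.0, voom of limma 3.58.1, 2 other scalings, no filter on low counts and each mouse left out. Leaving out mice 2 and 4 together was added after the data were seen. Figures were drawn with matplotlib 3.10.9.

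The comparison and the gene lists were chosen with earlier results of these data known. Genes are named if they are 1 of the 5 label markers, if they are among the 10 largest called differences per direction with a mean of at least 5 CPM and 1 direction in all 5 mice, or if they are list members, by the first 3 of a list and up to 3 called per direction. Further members are given with their values, and *Chrm5* was named after its values were seen. Some genes that meet these rules are not reported here. Promoters came from RefSeq (GRCm38.p6), which held 11069 of 15080 symbols tested.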

Additional observations from a re-analysis of the deposited data

Results flagged for a closer look

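Library measures, sums of the lists and 22 genes that were label markers or among the largest differences were searched in each region, 120 groups of 5 libraries in all, for 1 library that stood apart by Dixon's criterion, which chance meets in about 5% of groups. It was met 20 times, 6 times by the hippocampus of mouse 2, 5 times by that of mouse 4 and 7 times by the cortex of mouse 2. The explanations of these values were not tested.

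In the hippocampus of mouse 2, the neocortical upper layers summed to 1738 CPM (others 874 to 974), *Mef2c* had 630.4 CPM (others 99.7 to 138) and *Trpa1* 3.083 CPM (others 0 to 0.697). The same library was low in *Prox1*, at 67.69 CPM (others 135 to 160.2), and in the sum of microglial genes, at 172.7 CPM (others 255 to 278). Its Wnt ligands and modulators summed to 551 CPM (others 491 to 506).

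In the hippocampus of mouse 4, the thalamus and habenula list summed to 747 CPM (others 215 to 243), *Lhx9*, a member of that list, had 54.7 CPM (others 15.4 to 25.9), and the deep layer list was low at 1714 CPM (others 2026 to 2149). A single gene that collects ribosomal RNA reads held 0.829% (others 0.226 to 0.306) of the counts of that library. A list of 4 genes for ribosomal RNA reads, which includes the mitochondrial ribosomal RNA genes *mt-Rnr1* and *mt-Rnr2*, summed to 10690 CPM (others 4328 to 5206). In the hippocampus of mouse 5, *Wnt2* stood apart at 12.6 CPM (others 7.83 to 9.09).

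In the cortex of mouse 2, 69.74% (others 77.3 to 78.8) of the reads were counted on genes and 8.663% (others 3.87 to 5.13) were not aligned. The single gene that collects ribosomal RNA reads held 3.947% (others 0.235 to 0.94) of the counts. The list of 4 genes for ribosomal RNA reads, mitochondrial ones included, summed to 47980 CPM (others 4984 to 12690.0). *Cabp7* had 4.577 CPM (others 2.12 to 2.47), *Fibcd1* 10.04 CPM (others 5.53 to 6.58) and the choroid plexus list 11.96 CPM (others 9.08 to 9.76) there. In the cortex of mouse 3, the kainate receptor genes summed to 783.6 CPM (others 715 to 724).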

How the results depend on the processing

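The count of WT genes between regions stayed within 1.5 times its value under all alternatives, from 4908 (without mouse 1) to 7448 (without mouse 2), and no called gene reversed. Without the replicate block it was 5735, of which 5622 were among the 6496, with DESeq2 5000, with limma voom 6542, and without mice 2 and 4 it was 6922. The upper quartile scaling called 3647 higher and 2830 lower, DESeq2's size factors 3331 and 3199. The filter on low counts set the number over 2-fold, 1462 without it. Of 153 called genes that the naming rule covers and that are reported, 133 kept the call with each mouse left out, and 125 did so under all alternatives but the one chosen after the data were seen. Without the replicate block 15 of them lost the call (among others *Gria2*, *Grik1*, *Grin2a*, *Cbln1*, *Aqp4*, *P2ry12*, *Pdyn* and *Slc32a1*). The cause was not tested.

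The Ube3aOE count of 4914 ran from 2793 (without mouse 7) to 4279 with 1 mouse left out. The interaction count was 0 under every alternative run. The share of genes with an unadjusted interaction *P* value under 0.05 varied, from 3.75% without the filter on low counts to 9.81% without mouse 2 and 11.3% without mouse 6. The number of switch-like genes, 0, was 4 at a border of 1 CPM and ran from 0 to 3 with 1 mouse left out, 3 without mouse 2 and 2 without mouse 3. Signs changed for genes that were not called with all mice: without the replicate block *Reln* (0.00082) and *Col1a2* (0.021), and without mice 2 and 4 *Wnt3* (-0.014), *Cldn5* (-0.065), *Col1a1* (-0.45), *Col3a1* (-0.0029) and *Slc5a7* (-0.056). With 1 mouse left out the log2 fold change ran from -0.30 to 0.042 for *Reln*, -0.17 to 0.0015 for *Pecam1*, -0.26 to 0.092 for *Flt1*, -0.32 to 0.45 for *Col1a1*, -0.57 to 0.14 for *Col1a2*, -0.32 to 0.62 for *Col3a1* and -0.65 to 0.010 for *Lars2*. With 5 mice, the half-width of the 95% interval of a log2 fold change had a median of 0.18, which limits what smaller differences can be seen.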
